A study of Mus musculus with 2 samples.

Results

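Tumor_5 is 1 of 11 clusters of hepatoma cells that the authors named in single-cell RNA libraries from grafted mouse tumours, and its members are the cells that carry this name in the deposited cell lists. It held 736 of 11247 cells, 425 in the library from IgG-treated tumours and 311 in the library from antibody-treated tumours, out of 7577 tumour cells in all. The tumours were grafts under the skin of Hep1-6, a single mouse hepatoma line, in male wild-type C57BL/6 mice 6 to 8 weeks old on a normal diet under specific pathogen-free conditions, which were injected into the peritoneum with either control IgG or a SIGLEC15 antibody. SIGLEC15 is a sialic acid-binding receptor of myeloid cells that dampens T cell responses. The design text gives 3 mice per group, yet there is 1 library per group, so no test between groups or clusters was possible. Tumours were digested with collagenase, and bead-enriched CD45+ cells were loaded with unsorted cells in equal parts.

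Hepatocytes and the hepatomas derived from them secrete most plasma proteins, among them albumin, transferrin and the 3 chains of fibrinogen. Immediate early genes such as Fos, Egr1 and Atf3 encode short-lived transcription factors that are switched on within minutes of growth factor or stress signals, and they are also known to rise while tissue is dissociated. Genes of mitosis are transcribed late in the cell cycle and are low in resting cells.

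All values by gene are sums of unique molecular identifiers (UMIs, counted transcripts) over the cells of a cluster in the antibody library, scaled to the cluster's total (CPM, counts in each 1000000 UMIs). Each of the 11 tumour clusters gives 1 such value per gene. A gene was called higher or lower when the level in Tumor_5 differed by at least 1.5-fold from that in all other tumour cells together. Intervals are 95% and cover counting error only. The cells were clustered on the same genes, so a cluster set against the rest is a description and not a test.

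The median Tumor_5 cell held 21895 UMIs and 4033 genes in the antibody library and 21319 UMIs in the IgG library. In the other tumour clusters the median ranged from 18449 to 24288 UMIs in the antibody library, apart from Tumor_4 at 2483. The mitochondrial share was 5.30%, within the range of the other clusters. The 2 libraries shared 11 barcodes, 1 of them on a Tumor_5 cell of the antibody library and 0 on an IgG one. All 14 hepatoma markers had UMIs in Tumor_5 and summed to 34099 CPM, against 16320 to 50453 in the other tumour clusters, although Apoa2 was at 8.91 CPM and H19 at 0.29. Markers of T cells summed to 17.8 CPM, against up to 6623 in a T cell cluster, and macrophage markers to 26.7 CPM, against up to 17863. Of the natural killer cell markers 5 of 8 were at 0, among them Ncr1 and Eomes. The cells thus carried the markers of their label, and those of the leukocyte types were near 0.

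Immediate early genes and plasma protein genes were both high in Tumor_5, while genes of mitosis and DNA replication were low. Of 7022 genes at 10 CPM or more over all tumour cells, 187 were higher (2.66%) and 335 were lower (4.77%) in Tumor_5. With the median log2 ratio of all genes moved from -0.07 to 0, 242 were higher and 286 lower. Tumor_5 was the highest of the 11 clusters for 172 genes (2.45%) and the lowest for 181 (2.58%). Its level passed the next cluster by 1.5-fold for 0 genes, and fell that far below the next cluster for 1, Kif20b, which had 14 UMIs in Tumor_5.

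**Figure D1:**
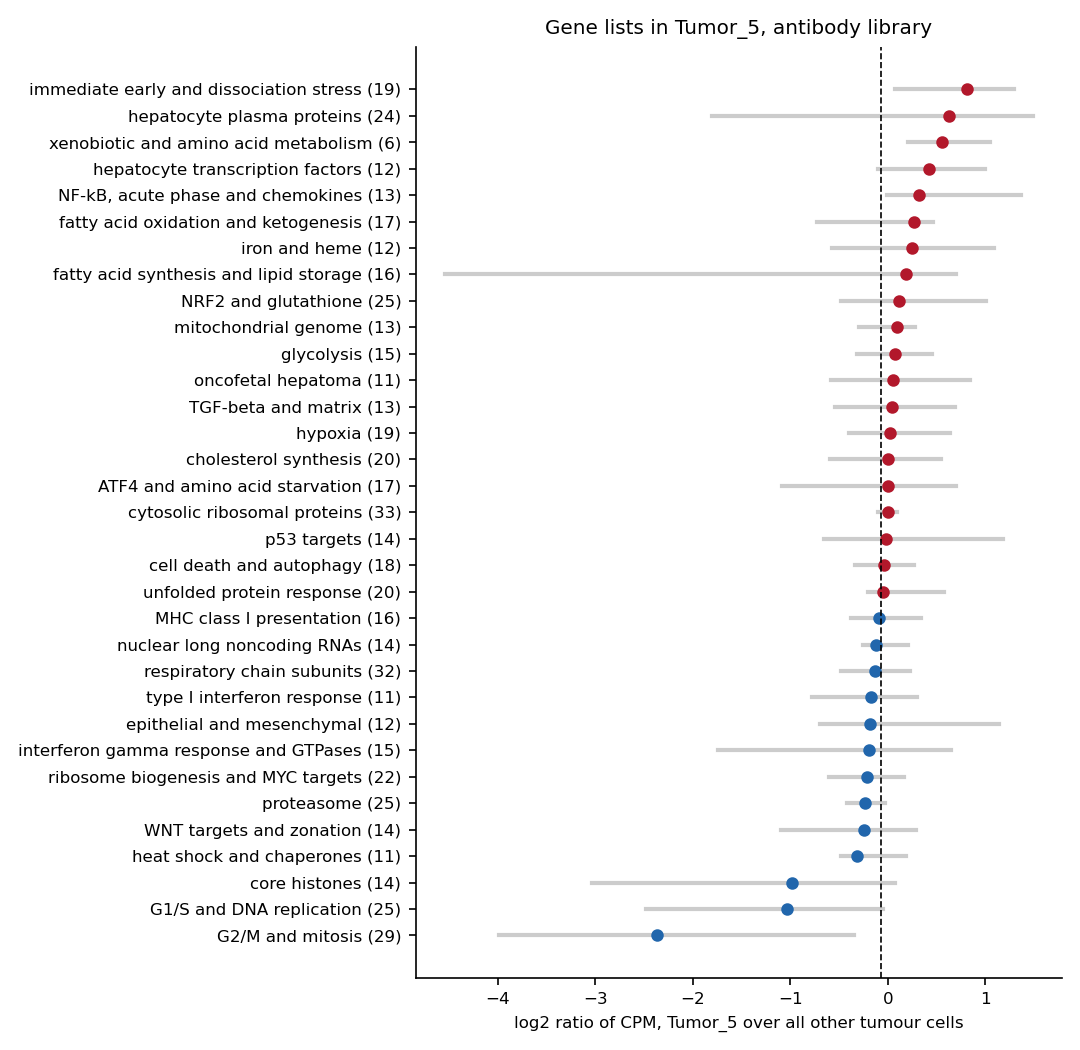
Median (point) and range (grey bar) of the log2 ratio of CPM in Tumor_5 to all other tumour cells, for the tested members of 33 gene lists, with the number of tested members in parentheses. The dashed line is the median of all 7022 genes at -0.07. Immediate early and dissociation stress genes are at the top (0.81) and genes of mitosis at the bottom (-2.36).

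The list called immediate early genes here was drawn up as immediate early and dissociation stress genes. Of its members, 15 of 19 tested were higher and 0 lower in Tumor_5, where 2.66% of all genes were higher. Their median log2 ratio was 0.81, against -0.07 over all genes. They summed to 6430 CPM in Tumor_5, close to Tumor_8 at 6330, and to 1301 in Tumor_4. Tumor_5 had the highest level of the 11 clusters for 5 of them.

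Fos, a subunit of the AP-1 transcription factor, stood at 787 CPM in Tumor_5 and between 111 (Tumor_4) and 775 (Tumor_8) in the others, which is 2.45-fold (2.38 to 2.53) the level of the other tumour cells. Its partner Jun reached 355 CPM against 171 (2.08-fold, 1.99 to 2.17), and Fosb 318 against 142. Egr1, a zinc finger factor induced by growth signals, was at 448 CPM in Tumor_5, 434 in Tumor_10 and no more than that elsewhere. Thus Tumor_5 lay at the top for Fos and Egr1, with Tumor_8 or Tumor_10 next to it. Atf3, a stress-induced repressor, was at 206 CPM in Tumor_5, below Tumor_8 at 267 and far above Tumor_6 at 17.4. Ier3, which limits cell death, was highest in Tumor_5 at 589 CPM, with Tumor_1 next at 470. Zfp36, which speeds the decay of inflammatory messenger RNAs, stood at 160 CPM against 67.7 in the other tumour cells (2.36-fold, 2.20 to 2.52). The related Zfp36l1 was highest in Tumor_5 at 327 CPM, next to 266 in Tumor_10. Btg2, an antiproliferative gene that p53 also induces, was 2.26-fold higher (2.17 to 2.37). The 4 members that were not called were Jund at 1.42-fold, Myc and Fosl1 at 1.12-fold each, and Maff at 1.05-fold. All 19 tested members thus had a log2 ratio above 0, by unlike amounts.

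**Figure D2:**
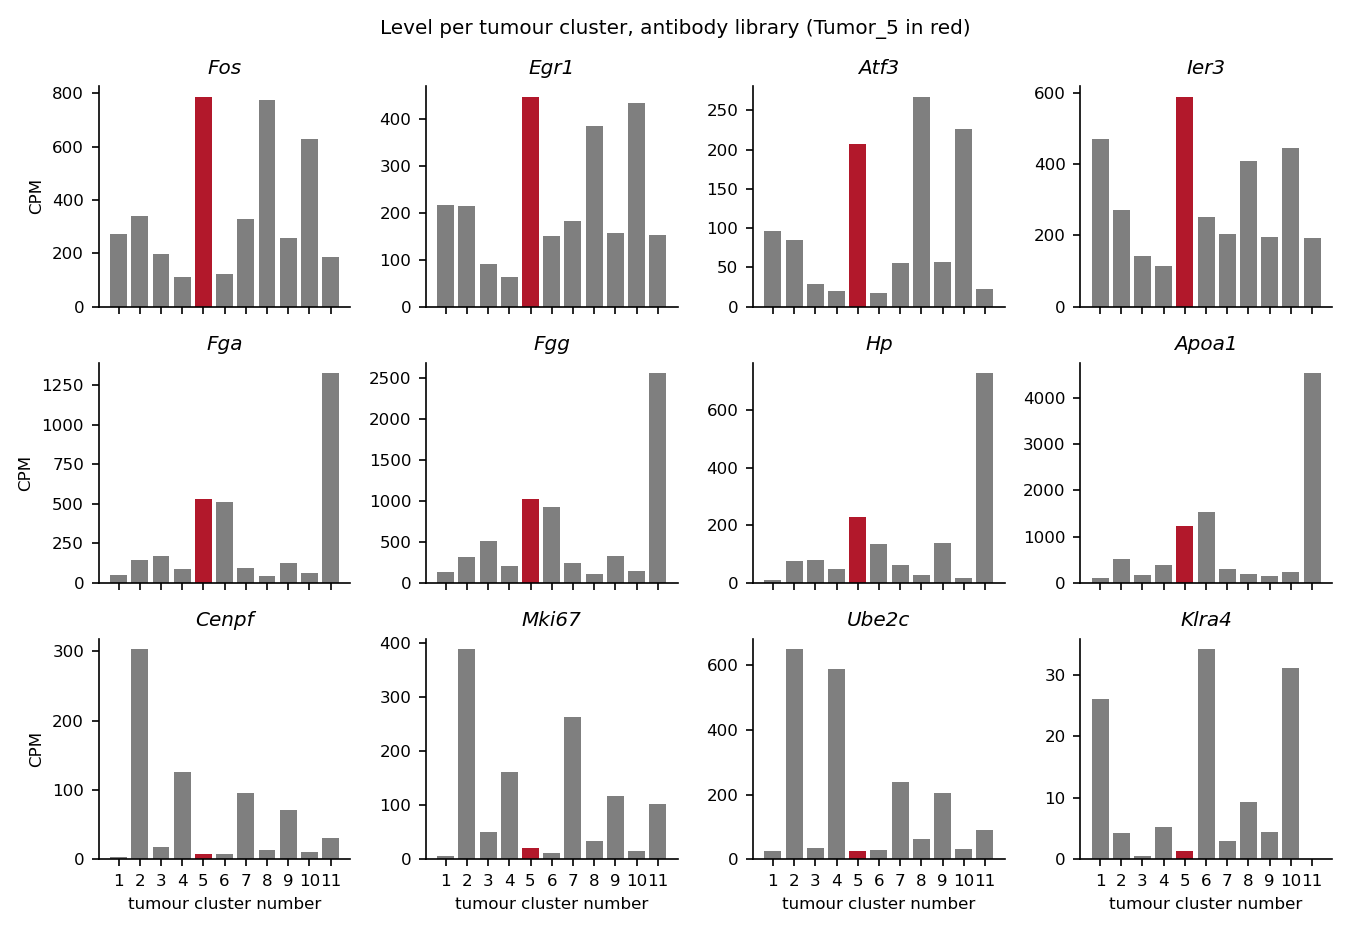
Level in CPM (each axis from 0) of 12 genes in the 11 tumour clusters of the antibody library, with Tumor_5 in red. Fos in Tumor_5 (787 CPM) is close to Tumor_8, Fga (532 CPM) is below Tumor_11 alone, and Klra4 (1.31 CPM) is far below Tumor_6.

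Plasma protein genes came next. Of 24 tested, 12 were higher and 2 lower, with a median log2 ratio of 0.63, where 2.66% of all genes were higher and 4.77% lower. Their sum of 40216 CPM ranked 3 of 11, between 16052 in Tumor_1 and 63968 in Tumor_11. All 3 fibrinogen chains were higher in Tumor_5. Fga, the alpha chain, was at 532 CPM in Tumor_5, 1328 in Tumor_11 and as low as 41.5 in Tumor_8, and was 2.80-fold (2.69 to 2.91) the level of the other tumour cells. Fgg, the gamma chain, was at 1017 CPM (2.45-fold, 2.38 to 2.52). Fgb, the beta chain, was at 5404 CPM (2.00-fold, 1.98 to 2.02). For all 3 chains Tumor_5 was second to Tumor_11.

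Hp, which encodes haptoglobin, the scavenger of free haemoglobin, was at 228 CPM against 88.5 (2.58-fold, 2.43 to 2.73). Apoa1, the main protein of high-density lipoprotein, was at 1233 CPM (2.30-fold, 2.25 to 2.36), below Tumor_11 and Tumor_6. Serpina7, thyroxine-binding globulin, is outside the list and had the highest ratio by the naming rule, 82.6 CPM against 23.3 (3.54-fold, 3.20 to 3.91), with Tumor_6 next at 70.6. With the other tumour clusters weighted alike, so that Tumor_11 counts as much as any other, the ratio of Apoa1 was 1.52 and that of Hp 1.72, and those of Fga and Fgg were 2.03 and 1.86. Among the most abundant members, Apoe at 9166 CPM was not called at 1.35-fold the level of the other tumour cells, nor was Alb, albumin, at 5545 CPM (1.48-fold). Trf, which encodes transferrin, was higher at 6767 CPM (1.59-fold, 1.58 to 1.61), and at 1.498-fold just below the threshold among cells of like depth (between the quartiles of Tumor_5). Apoa2 was lower (8.91 CPM against 31.3) and so was Serpina1b, an alpha-1 antitrypsin gene with near-identical copies that can share reads. Both were very high in Tumor_11, at 825 and 448 CPM.

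Some of these genes share short promoter motifs, and 4 promoters are shown because their genes carry the high fibrinogen and the low mitotic levels. Each window runs from 250 bases before to 50 after the gene start in RefSeq GRCm38.p6, and motifs were searched on both strands. Capitals mark GTTAAT, part of the HNF1 site of liver genes, in Fga (chr3:83025903-83026202, plus strand) and Fgb (chr3:83049814-83050113, minus strand), and TTTGAA, the cell cycle homology element, with CCAAT, the NF-Y box, in Hmmr (chr11:40733388-40733687, minus strand) and Ube2c (chr2:164769679-164769978, plus strand), where 1 GTTAAT is left in lower case.
Fga: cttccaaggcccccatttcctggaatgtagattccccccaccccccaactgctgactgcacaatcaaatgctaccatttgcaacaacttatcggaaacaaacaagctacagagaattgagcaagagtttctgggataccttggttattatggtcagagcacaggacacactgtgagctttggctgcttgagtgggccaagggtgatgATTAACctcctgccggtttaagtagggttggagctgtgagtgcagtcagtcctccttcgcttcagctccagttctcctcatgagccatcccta
Fgb: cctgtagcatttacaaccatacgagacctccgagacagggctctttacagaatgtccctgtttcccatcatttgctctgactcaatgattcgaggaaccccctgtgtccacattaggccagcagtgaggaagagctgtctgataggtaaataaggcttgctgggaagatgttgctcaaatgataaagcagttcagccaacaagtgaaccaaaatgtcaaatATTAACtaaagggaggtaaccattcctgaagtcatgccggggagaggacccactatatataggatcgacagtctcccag
Hmmr: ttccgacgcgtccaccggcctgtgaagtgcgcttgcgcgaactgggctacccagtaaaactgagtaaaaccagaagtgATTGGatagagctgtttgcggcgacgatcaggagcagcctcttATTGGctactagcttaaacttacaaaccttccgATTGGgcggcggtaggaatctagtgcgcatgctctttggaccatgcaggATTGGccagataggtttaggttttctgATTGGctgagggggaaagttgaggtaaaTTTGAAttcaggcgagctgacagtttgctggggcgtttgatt
Ube2c: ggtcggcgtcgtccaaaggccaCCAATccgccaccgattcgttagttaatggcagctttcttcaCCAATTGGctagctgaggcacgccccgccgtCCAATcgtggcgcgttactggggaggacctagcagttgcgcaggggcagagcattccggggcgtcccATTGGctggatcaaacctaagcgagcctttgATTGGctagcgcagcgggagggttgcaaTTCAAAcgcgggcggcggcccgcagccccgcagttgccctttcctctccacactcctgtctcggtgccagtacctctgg

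Of 27025 genes with a promoter in the table, 8.24% held GTTAAT, 20.2% TTTGAA and 41.1% CCAAT. Among the genes tested 5618 of 7022 matched a promoter, and the shares were 5.14%, 13.9% and 42.7%. GTTAAT was found in 7 of the 18 matched plasma protein genes and in 2 of the 26 matched genes of mitosis. The window of Fgg, the other fibrinogen chain, held no GTTAAT, which says only that these letters are not in this window. TTTGAA was found in 17 and CCAAT in 21 of those 26. For the immediate early genes, the cAMP response element TGACGTCA was found in 3 of 15 and a CArG box, the site of serum response factor, in 1 of 15, in windows that cover only the start of each gene. Of all promoters 2.03% held TGACGTCA and 1.81% a CArG box, and of those of the genes tested 3.72% and 1.58%. Matches describe the sequence and not binding.

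Genes of mitosis were the lowest group. Of 29 tested, 28 were lower and 0 higher, where 4.77% of all genes were lower, and their median log2 ratio was -2.36. Hmmr, a spindle-associated hyaluronan receptor, was at 1.75 CPM (12 UMIs) against 28.9 in the other tumour cells. Cenpf, a kinetochore protein, was at 7.45 CPM in Tumor_5, 3.62 in Tumor_1 and 303 in Tumor_2. Ube2c, which loads ubiquitin for the anaphase-promoting complex, was at 26.4 CPM, next to 25.5 in Tumor_1 and far from 650 in Tumor_2. Mki67, the proliferation marker Ki-67, was at 20.2 CPM against 127 (0.159-fold, 0.133 to 0.188). The member that was not called was Pttg1, securin, at 0.786-fold. Kif20b, a kinesin of cytokinesis outside the list, was lowest of all clusters at 2.05 CPM (14 UMIs, 1.12 to 3.43). The next cluster, Tumor_1 at 3.29, lay within that counting interval.

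The same direction held for earlier phases of the cycle. Of 25 genes of G1/S and DNA replication 19 were lower and 0 higher, where 4.77% of all genes were lower. Their median log2 ratio was -1.04. Pcna, the sliding clamp of DNA polymerase, was lowest in Tumor_5 at 34.9 CPM (30.6 to 39.6), far below Tumor_7 at 227. The next cluster, Tumor_1 at 38.9, lay within that counting interval. Mcm6, a subunit of the replicative helicase, stayed near the other cells at 70.3 CPM against 72.9. Of 14 histone genes 11 were lower, though histone genes are near-identical copies that can share reads. After each cell was thinned to 10000 UMIs, which 302 of the 311 cells reached, 13.2% of Tumor_5 cells (9.63 to 17.6) had a UMI of Mki67, against 36.9% of the other tumour cells (34.9 to 38.8). Without thinning the shares were 21.2% and 44.1%.

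These low levels belong to a set of clusters and not to Tumor_5 alone. Over the 7022 genes, the profile of Tumor_5 (log2 of CPM plus 10, centred per gene) was most like Tumor_6 (r = 0.54), then Tumor_10 (0.35) and Tumor_1 (0.31), and least like Tumor_4 (-0.65). Against Tumor_6, where 5.25% of all genes were higher in Tumor_5 and 3.15% lower, 10 of the 29 genes of mitosis were higher and 1 lower. Against Tumor_10 (7.25% and 6.58% of all genes) 2 were higher and 1 lower. Against Tumor_1 (25.9% and 7.06% of all genes) 18 were higher and 0 lower. Relative to its 3 most similar clusters together, 0 of the 29 genes of mitosis and 0 of the 25 of G1/S and DNA replication were lower in Tumor_5. Mki67 had a log2 ratio of 1.13 there. Outside the lists Kif20b stayed lower, at 0.551-fold, and so did Brca2, at 0.648-fold. The low level of the listed cell cycle genes thus held against the clusters rich in them, such as Tumor_2, Tumor_4 and Tumor_7. It did not hold against the 3 most similar ones.

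Immediate early and plasma protein genes separated Tumor_5 from different neighbours. Against Tumor_6, 16 of the 19 immediate early genes were higher (median log2 1.44), with Atf3 at 3.56 and Fosb at 2.74 on the log2 scale, while only 2 of 24 plasma protein genes were higher and 2 lower (median -0.05). Against Tumor_10 the reverse held, with 0 immediate early genes higher and 3 lower (median 0.04) and 21 of 24 plasma protein genes higher (median 1.45), Hp at 3.82 on the log2 scale. Against Tumor_1, 11 immediate early genes (median 0.89) and 22 plasma protein genes (median 1.69) were higher. So Tumor_5 resembled Tumor_6 in plasma proteins and Tumor_10 in immediate early genes.

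**Figure D3:**
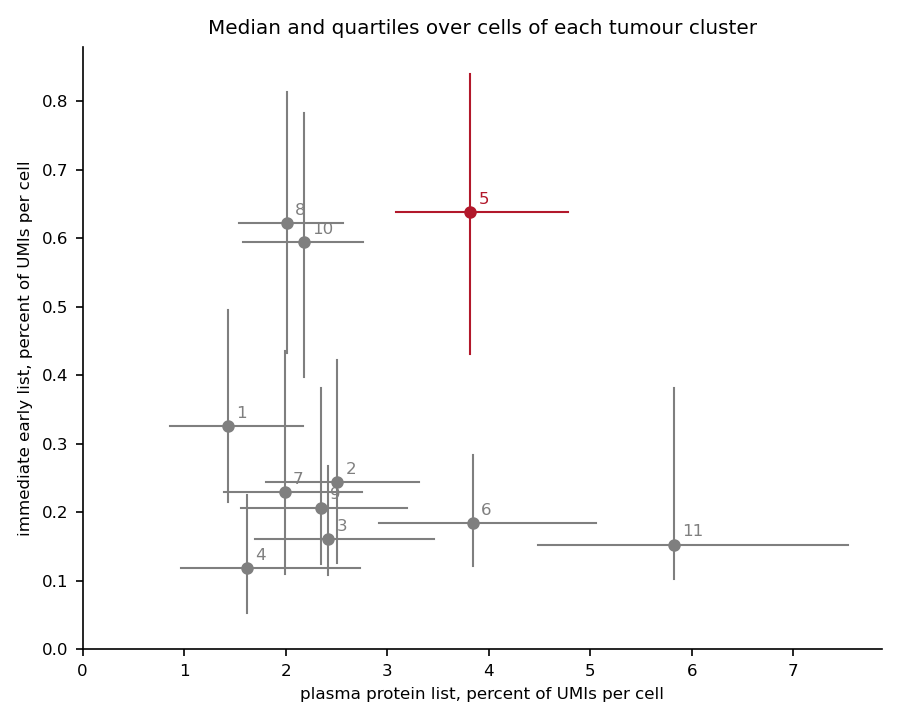
Percent of each cell's UMIs from plasma protein genes (x axis) and immediate early genes (y axis) in the antibody library, as the median (point) and quartiles (lines) over the cells of each of the 11 tumour clusters. Tumor_5 (red) lies at 3.82% and 0.637%, level with cluster 6 on the x axis and with clusters 8 and 10 on the y axis.

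In single cells each of the 2 groups was high when taken separately. Immediate early genes gave a median of 0.637% of the UMIs of a Tumor_5 cell (quartiles 0.430 and 0.840), and 89.4% of its cells lay above the median of the other tumour cells, 0.241%. In Tumor_8 and Tumor_10, 94.5% and 93.0% of cells did. Plasma protein genes gave 3.82%, with 91.6% of cells above the other tumour cells' 2.26%. In Tumor_6 and Tumor_11, 88.8% and 100% of cells did. Within the 311 Tumor_5 cells, which share 1 library, the UMI shares of the 2 groups had a Spearman rho of -0.18. That of immediate early genes with depth was -0.07 and with the mitochondrial share 0.08. Each group was thus high in most Tumor_5 cells, and neither share tracked depth closely. The 78 cells highest in immediate early genes held a median of 3.53% plasma protein UMIs and the 78 lowest 4.05%. The part of tissue digestion in the immediate early levels was not tested.

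Regulators of hepatocyte identity were highest in Tumor_5 as a sum, at 1350 CPM against 655 to 1107 in the other clusters. Cebpb alone gave 610 CPM of that sum. Of 12 tested 4 were higher and 0 lower, with a median log2 ratio of 0.42, where 2.66% of all genes were higher. Against Tumor_6, Tumor_10 and Tumor_1 in turn, 1, 4 and 5 were higher and 0 lower. Over all genes 5.25%, 7.25% and 25.9% were higher there. Cebpa, a factor of the differentiated hepatocyte, was at 60.8 CPM, next to 59.3 in Tumor_11 and above 30.4 in the other tumour cells (2.00-fold, 1.79 to 2.22). Cebpb, its acute phase relative, was at 610 CPM, next to 497 in Tumor_1 (1.62-fold, 1.57 to 1.68). Foxa3 and Onecut1 were the other members called. Hnf4a, a master regulator of hepatocytes, was not called at 69.0 CPM against 56.9 (1.21-fold), and was higher in Tumor_6 at 100.5. Among the oncofetal genes Afp, alpha-fetoprotein, was at 5785 CPM (1.51-fold the level of the other tumour cells, but 1.42-fold with clusters weighted alike and 1.39-fold among cells of like depth, so the call did not hold there), and Gpc3, a heparan sulfate proteoglycan of hepatomas, was at 494 CPM, next to 484 in Tumor_11.

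Of 13 NF-kB and acute phase genes 5 were higher and 0 lower, where 2.66% of all genes were higher. Cxcl1, a neutrophil-attracting chemokine, was highest in Tumor_5 at 36.4 CPM, next to 31.1 in Tumor_11. Socs3, a feedback inhibitor of cytokine signalling, was highest too, at 74.7 CPM, next to 62.5 in Tumor_8. Lcn2, an iron-sequestering acute phase protein, was at 142 CPM (1.73-fold, 1.61 to 1.85). Nfkbia, the NF-kB inhibitor, was not called at 1.14-fold, nor were the NF-kB subunits Nfkb1 (1.04-fold) and Nfkb2 (0.994-fold) or Cfb, complement factor B (1.38-fold). Nfkbiz, a nuclear cofactor outside the list, was highest in Tumor_5 at 78.3 CPM (2.38-fold, 2.16 to 2.62), with Tumor_8 at 67.5.

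Genes of iron handling were higher for 5 of 12, where 2.66% of all genes were higher. Cp, ceruloplasmin, which oxidises iron for export, was at 416 CPM against 195 (2.13-fold, 2.04 to 2.22). Slc40a1, the iron exporter ferroportin, was highest in Tumor_5 at 17.8 CPM with Tumor_3 next at 12.9. Hmox1, which breaks down haem, was at 111 CPM (1.99-fold, 1.83 to 2.15), but Tumor_10 reached 221. The ferritin gene Fth1 was not called at 0.929-fold and Tfrc, the transferrin receptor, at 0.672-fold.

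Interferon gamma response genes were intermediate. Of 15 tested 1 was higher and 3 lower against all other tumour cells, among which Tumor_9 was far above the rest. Over all genes 2.66% were higher and 4.77% lower. Cxcl10, a T cell-attracting chemokine, was at 45.6 CPM in Tumor_5, 472 in Tumor_9 and 6.36 in Tumor_1. Iigp1, an immunity-related GTPase, was the member called higher, at 278 CPM (1.56-fold, 1.49 to 1.64), though at 1.44-fold with clusters weighted alike. Against Tumor_6, Tumor_10 and Tumor_1 in turn, 10, 13 and 15 of the 15 were higher in Tumor_5 and 0 lower. Over all genes 5.25%, 7.25% and 25.9% were higher there. Of 19 hypoxia genes 1 was higher and 0 lower, and 18 were lower against Tumor_1, where 7.06% of all genes were. Yet hypoxia genes gave a median of 0.197% of the UMIs of a Tumor_5 cell. Of its cells 82.6% lay above the median of the other tumour cells, 0.109%. Tumor_6, Tumor_10 and Tumor_1 had higher medians of 0.217%, 0.308% and 0.599%. The remaining clusters lay between 0.0644% (Tumor_4) and 0.111% (Tumor_8). Of 11 heat shock genes 0 were called in either direction, with a median log2 ratio of -0.31.

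A few single genes stood out. Chka, choline kinase alpha, which starts phosphatidylcholine synthesis, was highest in Tumor_5 at 780 CPM, next to 586 in Tumor_10 (2.34-fold, 2.27 to 2.42). Selenbp1, a selenium-binding methanethiol oxidase, was at 328 CPM against 134, below Tumor_6 at 380. Fabp1, the liver fatty acid-binding protein, had 5 UMIs in Tumor_5 (0.731 CPM), while Tumor_11 held 563 CPM and the median of the other clusters was 2.09. Klra4, which encodes a Ly49 receptor known from natural killer cells, was at 1.31 CPM (9 UMIs) in Tumor_5, which ranked 9 of 11. Tumor_3 at 0.483 and Tumor_11 at 0 were lower still, and the median of the other clusters was 4.88. Its level was 34.2 in Tumor_6, 31.1 in Tumor_10 and 26.1 in Tumor_1, the clusters most like Tumor_5. Klra4 belongs to a family of near-identical genes, so the assignment of its reads is uncertain. Tff1, a trefoil peptide of mucous epithelia, was at 32.1 CPM against 204, 356 and 415 in those clusters, and Areg, a ligand of the EGF receptor, at 59.0 against 249, 333 and 371. These genes divided Tumor_5 from its nearest clusters in 1 direction.

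Between the libraries, the share of Tumor_5 among tumour cells differed by less than its counting error. It was 9.74% (8.87 to 10.7) of 4364 tumour cells with IgG and 9.68% (8.68 to 10.8) of 3213 with the antibody, a ratio of 0.994 (0.856 to 1.15). Of all cells it was 7.37% and 5.67%, a ratio of 0.770 (0.663 to 0.893), a denominator that the bead enrichment of CD45+ cells sets in part.

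**Figure D4:**
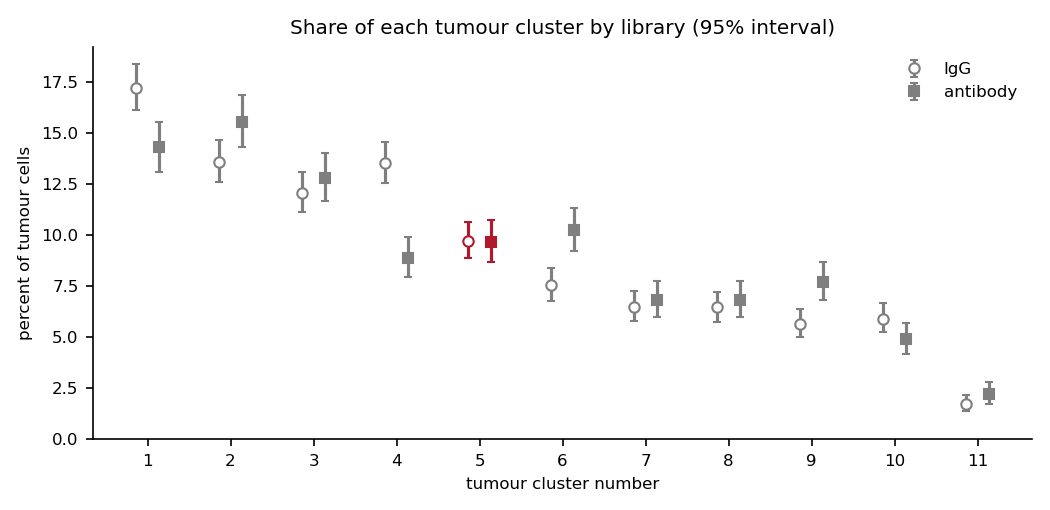
Percent of tumour cells in each of the 11 tumour clusters, with exact 95% intervals that cover counting error only, in the IgG (open circles) and antibody (filled squares) libraries. Tumor_5 (red) is at 9.74% and 9.68%.

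Expression could be compared between libraries for 105 genes, of which 54 had at least 50 UMIs in Tumor_5. Past 1.5-fold, 3 were higher (5.56%) and 1 lower (1.85%) with the antibody, and the median ratio was 1.02, against 1.04 in the other tumour cells. Lman2l, a lectin of the secretory pathway, was at 15.3 CPM with the antibody and 8.80 with IgG (1.74-fold, 1.29 to 2.37), while the other tumour cells had a ratio of 1.11. Rdh10, which makes retinal from retinol, was at 29.8 and 17.9 CPM (1.66-fold, 1.34 to 2.06), with 1.23 in the other tumour cells. Ncoa2, a nuclear receptor coactivator, was at 22.9 and 14.4 CPM (1.59-fold, 1.25 to 2.02), with 1.29 in the others. Ogfrl1 was at 2.92 CPM (20 UMIs) and 6.09 CPM (54 UMIs), a ratio of 0.480 (0.272 to 0.815), with 0.994 in the others. In single other tumour clusters the ratio ran from 0.708 to 1.54 for Lman2l, 0.802 to 1.58 for Rdh10 and 0.667 to 1.52 for Ncoa2. For Ogfrl1 it ran from 0.607 to 1.34. Gsta3, a glutathione transferase with close paralogs, had a ratio of 0.839 (0.781 to 0.902) in Tumor_5 and 0.824 in the other tumour cells. The interval of the ratio lay above 1 for 14 genes (25.9%) and below 1 for 5 (9.26%), and the mouse-to-mouse spread is not in it. In the other tumour cells together it lay above 1 for 25 genes and below 1 for 7. Those are 2902 antibody and 3939 IgG cells, against 311 and 425 in Tumor_5. Their intervals are narrower for that reason, so the 2 sets of counts cannot be compared.

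**Figure D5:**
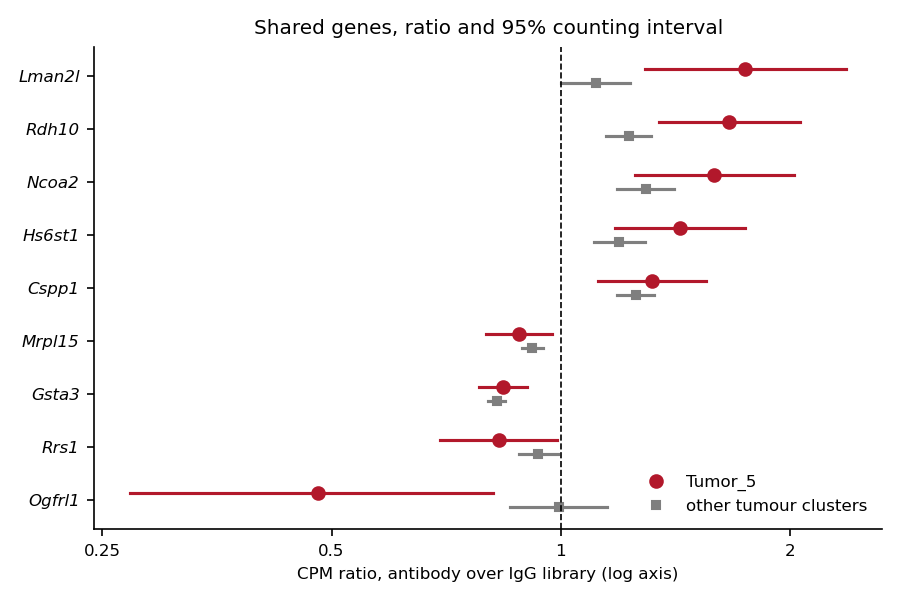
Ratio of CPM in the antibody to the IgG library (log axis) with its 95% counting interval for 9 shared genes, in Tumor_5 (red circles) and in all other tumour clusters (grey squares). Ogfrl1 is at 0.480 in Tumor_5 and 0.994 in the others, and Gsta3 is alike in both.

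The IgG library gave a second look at genes that set Tumor_5 apart. The authors named the clusters over both libraries, so a like direction in both is a description and not a replication. Of the 4 shared genes past 1.5-fold against the other tumour cells in the antibody library, 3 had the same direction with IgG and 2 passed 1.5-fold there. Arid5a, an RNA-binding protein that stabilises inflammatory transcripts, had a log2 ratio of 0.64 with the antibody and 0.81 with IgG. It was at only 5.84 CPM (40 UMIs) in Tumor_5 of the antibody library. Terf1, a telomere-binding protein, had -0.79 and -0.71. Neurl3 had -0.67 and -0.48, and Ogfrl1 had -0.99 and 0.04. Mcm3, a helicase subunit of DNA replication, is not one of the 4 and had -0.52 and -0.73. Immediate early and plasma protein genes of the IgG library were not analysed here.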

How the data were processed

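The authors deposited, for each of 2 libraries, a list of cells with their cluster and a matrix of natural log values. The deposited natural log values proved, when tested on the values, to be ln(1 + 10000 × UMIs / depth of the cell). The submitters' processing notes name Cell Ranger 2.1.1. The genome build, how cells were filtered and how they were clustered: not given in the sources used here. UMI counts were recovered from the values within a tolerance of 0.001 of a whole number. Gene sums matched the recovered depth in all 5482 antibody cells, and library totals were 74168827 UMIs (antibody) and 85804877 (IgG). Of the IgG matrix, 105 genes were complete and used, and the rest was not analysed here.

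UMIs were summed per cluster and scaled to CPM in Python 3.11.15 (scipy 1.17.1, pandas 2.3.3, numpy 2.4.6). Log2 ratios had a prior count of 0.5. Ratios have exact conditional and shares exact Clopper-Pearson 95% intervals, which cover counting error only, and the steps were tested on simulated data. With 1 library per group no p-value was computed. Whether the libraries pooled mice is not stated. Scrublet in scanpy 1.11.5 marked 3 of 5482 cells as doublets, too few to have worked, so doublets were not removed. Thinned shares are expected values over cells, with intervals on the sum rounded to whole cells.

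Genes were named as follows. The 15 higher and 15 lower genes past 1.5-fold with the interval bound farthest from 1, the 10 highest-ranked and 10 lowest-ranked against the next cluster, the 4 most abundant members of each of 33 lists, and 5 shared genes per direction between libraries could be named. Other list members, the leading genes against single clusters, and the genes compared over both libraries were chosen after their values were seen. The members and lists were chosen with earlier results of these data known. The text names part of these genes, and 1 item is not reported here. Alternatives were other scalings, thresholds, depth filters and reference clusters. Promoters came from RefSeq GRCm38.p6 by symbol. Plots were drawn with matplotlib 3.10.9.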

Additional observations from a re-analysis of the deposited data

How the results depend on the processing

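The reference clusters mattered most. In a comparison with Tumor_6, Tumor_10 and Tumor_1 only, chosen after seeing the data, 794 of the 7022 genes were higher. Against each of them singly, 5.25%, 7.25% and 25.9% of all genes were higher and 3.15%, 6.58% and 7.06% lower. Against the 3 together, 0 of 29 listed genes of mitosis, 0 of 25 of G1/S and 2 of 14 core histones were lower. Of 13 NF-kB and acute phase genes 8 were higher. The log2 ratio changed sign there for 16 named genes, to 0.27 for Nusap1, 0.37 for Cenpf, 0.45 for Cenpe, 0.031 for Aspm, 0.24 for Esco2, 0.025 for Aurka, 1.13 for Mki67, 0.33 for Fbxo5, 0.40 for Mcm7, 0.078 for Ube2s, 0.21 for Cks2, 0.66 for H2afz, 0.35 for Hist1h2ap, 2.55 for Cxcl10, 0.45 for Ccnd1 and -0.22 for Hmox1. Other calls ended there too, among them those of Selenbp1 (log2 ratio 0.46), Cebpb (0.37), Afp (0.52), Junb (0.45), C3 (0.58), Pcna (-0.18), Hmmr (-0.50) and Ube2c (-0.068). The alternative itself takes the cycling clusters out of the reference. A minimum of 50 CPM left 77 genes higher and 85 lower, a minimum of 1 CPM gave 438 and 1028 with 18 core histones lower, and a 2-fold threshold gave 39 and 142, since fewer or more genes pass. As a mean over cells, 5 shared genes were higher past 1.5-fold with the antibody, and the cause was not tested. Over 167 named genes and 9 alternatives, 1083 of 1503 log2 ratios stayed within the counting interval, 404 moved outside it without a change of sign and 16 reversed. All 27 alternatives for the 9 named library ratios stayed within it. Leaving out the deepest 10% of cells was also chosen after seeing the data. The alternative without predicted doublets was not run, because the caller marked 3 cells. No paired analysis was possible because each group is 1 library and no test was made. Depth limits genes such as Fabp1 and Hmmr, with 5 and 12 UMIs in Tumor_5, and the log2 ratio of Fabp1 ran from -6.17 with clusters weighted alike to -0.89 against those 3 clusters.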

Other observations

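Of 33 cytosolic ribosomal protein genes, 32 respiratory chain subunits and 25 proteasome subunits, 0 were past 1.5-fold in either direction, with median log2 ratios of 0.00, -0.13 and -0.23. Of 25 genes of glutathione and NRF2 metabolism 3 were higher, where 2.66% of all genes were higher, among them Gclc, the rate-limiting enzyme of glutathione synthesis, at 72.0 CPM against 35.8. Of 6 genes of xenobiotic and amino acid metabolism 3 were higher and 0 lower, with a median log2 ratio of 0.56. Cyp2d10, a cytochrome P450, was at 34.5 CPM against 16.6 (2.07-fold, 1.79 to 2.39), below Tumor_11 at 90.4. Of 16 genes of fatty acid synthesis and lipid storage 3 were higher and 1 lower, with a median of 0.19. Of 14 WNT target and zonation genes 4 were lower and 0 higher, where 4.77% of all genes were lower. This did not hold against the most similar clusters. Against Tumor_6, Tumor_10 and Tumor_1 in turn, 7, 3 and 9 of them were higher and 0, 1 and 1 lower. Over all genes 5.25%, 7.25% and 25.9% were higher there and 3.15%, 6.58% and 7.06% lower. Ccnd1, cyclin D1, was at 145 CPM against 268, and Notum, a WNT-inactivating enzyme, at 14.9 against 32.0, but Notum was at 1.64 in Tumor_1. Ddit3, a stress-induced factor of the unfolded protein response, was at 57.1 CPM and ranked 4 of 11. The median of the other clusters was 36.1 CPM, with Tumor_1 highest at 508. Tat, a glucocorticoid-responsive tyrosine-degrading enzyme, was at 23.7 CPM against 1.97 in Tumor_1.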
